A study of Mus musculus with 18 samples.

Results

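The 10 genes described here encode membrane carriers for which endothelium with a barrier function, above all that of brain vessels, is known. They are *Abcb1a* and *Abcg2*, which pump drugs and other compounds out of the cell, *Slco2a1*, which carries prostaglandins, and the amino acid carrier genes *Slc7a5*, *Slc3a2*, *Slc7a1* and *Slc38a5*. The others are *Slc16a1* (lactate and ketone bodies), *Mfsd2a* (lysophospholipids) and *Tfrc*, the receptor that takes up iron bound to transferrin. Each was followed through the transcript cluster of the array annotated with its symbol alone, and each had 1 such cluster, so 10 of the 19938 genes measured were members and none was lost to a filter.

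Expression was measured on 18 Affymetrix Mouse Gene 1.0 ST arrays in endothelial cells that line lymphatic vessels (LEC) and blood vessels (BEC) of mouse embryos, with 3 arrays for each cell type at embryonic days 14.5, 16.5 and 18.5 (E14.5, E16.5 and E18.5). Per the design text, the 3 arrays of a group come from 3 litters, and LEC and BEC of an age come from matching litters. The labels give no strain, genotype or treatment, name the tissue only as embryonic, and describe the isolation of the cells only by citing another publication. The title of the series concerns an enhancer, bound by the transcription factor GATA2, that controls LEC identity. Levels are log2 values, so that a difference of 1 is a 2-fold difference, and errors of a difference are limma standard errors (SE) with 3 arrays per group. A gene was called at a limma p-value under 0.05 after Benjamini-Hochberg adjustment over all 19938 genes, and each adjusted p below is that value.

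Such carriers work because endothelial cells sealed by tight junctions leave little room between them, so that solutes have to cross the cells. Nutrient carriers let glucose, amino acids, lactate and lipids through, while ATP-driven pumps return lipophilic compounds to the blood. In the brain this program is known to depend on WNT signalling. Lymphatic capillaries, whose junctions are loose, are known for uptake of fluid and cells rather than for such a barrier.

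Markers of both cell types followed the labels. All 12 measured lymphatic markers were higher in LEC and all 14 blood endothelial markers were lower, with median differences of 3.04 and -3.38. The lists were chosen with earlier results of these data known, so they are no independent check of the labels. Over all genes 18.2% were called higher in LEC and 19% lower. Markers of other cells also differed between the isolates: 16 of 16 macrophage markers and 10 of 10 mast cell markers were higher in LEC, with medians of 2.43 and 2.54, and 11 of 14 mural cell markers were lower, with a median of -0.86. The 6 arrays of E18.5 had interquartile ranges of 3.182 to 3.362, below the 3.403 to 3.641 of the 12 earlier arrays. Neuron and astroglia markers were measured because many of these carriers are best known from the brain. The log2 of the 10 summed markers went from 7.70 to 7.92 in LEC at E14.5 to 8.70 to 9.15 at E18.5, and from 8.06 to 8.13 to 8.47 to 8.63 in BEC. Of the 10, only *Stmn2* was called as rising, from a mean of 4.62 to 8.35 in LEC (adjusted p = 4.4e-10) and from 5.71 to 7.32 in BEC (adjusted p = 1.6e-05). In LEC 3 of them fell and in BEC 1, against 21.2% and 17.3% of all genes. Of all genes 19.7% rose in LEC and 13.3% in BEC, and the median changes of the 10 markers were -0.11 and -0.01. On every array *Tubb3*, *Elavl4*, *Aqp4* and *Slc1a2* lay at or below 4.709, the level under which 95% of the values of olfactory receptor genes fell (the dim bound). The part of these markers in the results was not tested. Replicate 3 of BEC at E16.5 stood apart for *Mfsd2a* and *Slc38a5*, and the main results on these genes are given with and without it.

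The question of the design is how LEC and BEC differ and how each changes with age. Over the mean of the 3 ages, 8 of the 10 carriers differed between LEC and BEC, against 37.1% of all genes. All genes include dim ones. Of the 14585 genes above the dim bound on at least 3 arrays, 3580 were called higher and 3766 lower, with 8 carriers again. The carriers were chosen with earlier results of these data known. Both pumps and the prostaglandin carrier *Slco2a1* were lower in LEC, whereas *Slc7a5*, *Slc3a2*, *Mfsd2a*, *Tfrc* and *Slc16a1* were higher in LEC. *Slc7a1* and *Slc38a5* were not called. The median absolute difference was 0.76 for the 10 carriers and 0.14 for all genes, while the median signed difference was 0.17 against -0.02. For 7 carriers the LEC and BEC arrays were apart at every age, in 1 direction, which held for 16.3% of all genes. These arrays hold a mixture of cells, and fewer cells of a type cannot be told apart from less RNA per cell.

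**Figure D1:**
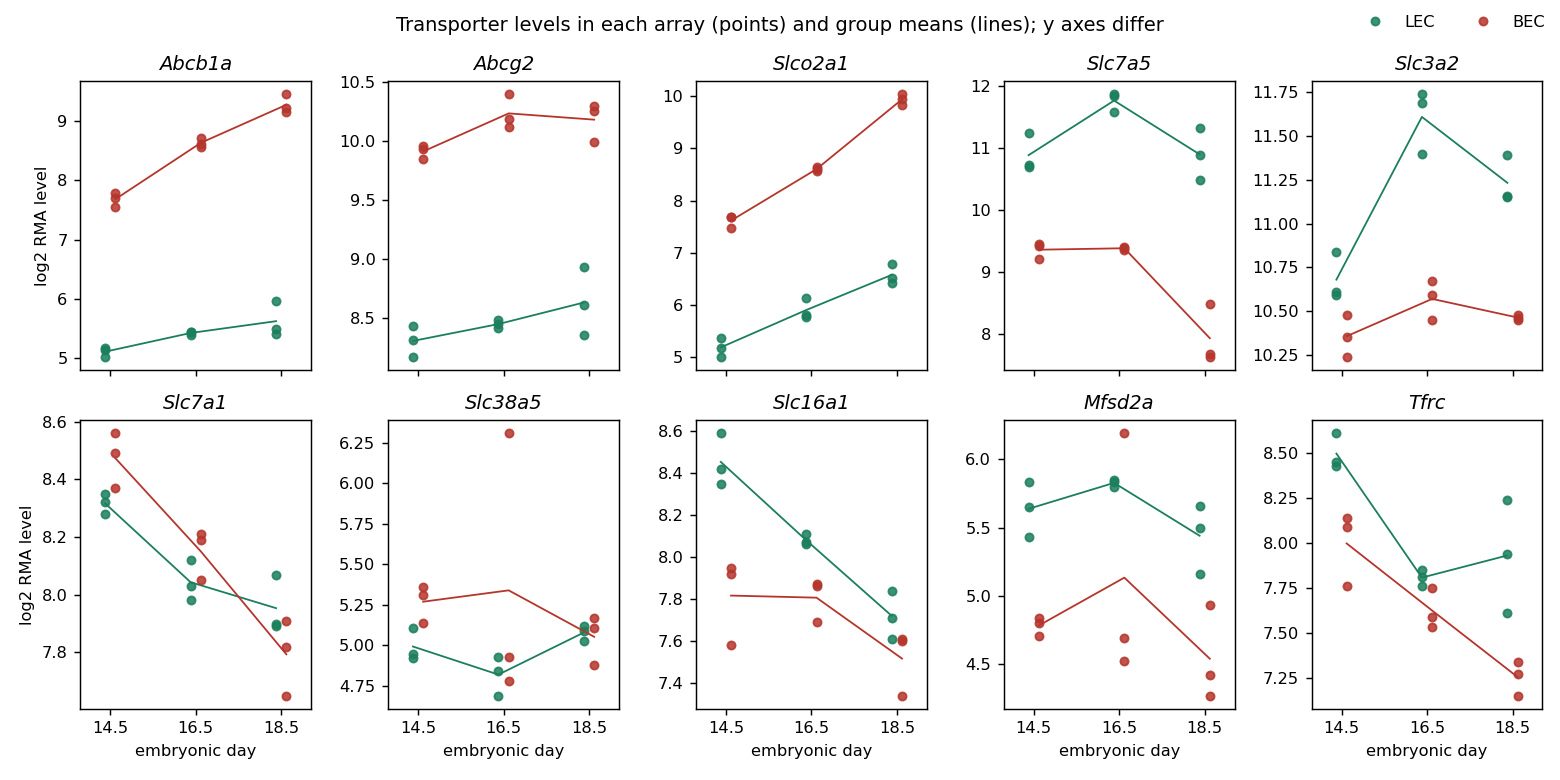
Log2 level of each carrier (y axis, its own range in each panel) at the 3 ages (x axis, embryonic day), with LEC in green and BEC in red; points are arrays and lines join group means. *Abcb1a*, *Abcg2* and *Slco2a1* lie higher in BEC and *Slc7a5* higher in LEC on every array, and 1 BEC array at E16.5 lies far above its neighbours for *Slc38a5* and *Mfsd2a*.

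At single ages, E14.5 called 6 carriers (16.5% of all genes), E16.5 called 5 (25.2%) and E18.5 called 7 (30.4%). *Abcb1a*, *Abcg2*, *Slco2a1* and *Slc7a5* were called at all 3 ages. *Slc16a1* was called at E14.5 alone of the 3 ages, *Slc3a2* at E16.5 and E18.5, *Tfrc* at E14.5 and E18.5, and *Mfsd2a* at E18.5. Without BEC E16.5 replicate 3 *Mfsd2a* was called at each age, and the counts were 7, 6 and 7. LEC and BEC arrays were apart for 10, 7 and 8 carriers at the successive ages, against 37.2%, 40.4% and 34.9% of all genes.

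**Figure D2:**
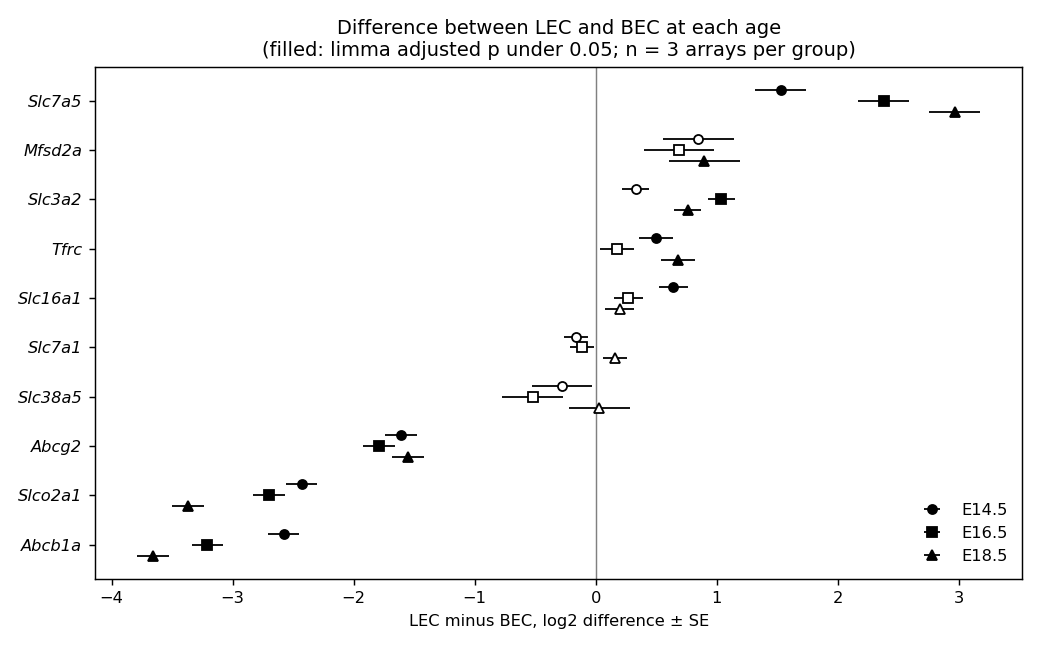
Difference between LEC and BEC in log2 units (x axis) for each carrier (y axis) at E14.5 (circles), E16.5 (squares) and E18.5 (triangles), with bars of 1 SE; filled symbols passed the limma threshold. *Abcb1a* moves from -2.58 to -3.66 and *Slc7a5* from 1.53 to 2.97 across the ages.

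*Abcb1a* encodes P-glycoprotein, the pump that keeps many drugs out of the brain. Its BEC levels were 7.79, 7.71 and 7.55 at E14.5, 8.57, 8.62 and 8.72 at E16.5, then 9.16, 9.22 and 9.46 at E18.5. Its LEC levels were 5.02, 5.16 and 5.13, then 5.43, 5.39 and 5.44, then 5.41, 5.96 and 5.49. Every BEC array therefore lay above every LEC array, and within BEC the 3 ages did not overlap. LEC were lower by a difference of -3.15 ± 0.07 over the ages (adjusted p = 1.1e-16), an 8.88-fold difference, which was -2.58 ± 0.13 at E14.5, then -3.21 ± 0.13 at E16.5, then -3.66 ± 0.13 at E18.5. From E14.5 to E18.5 it rose 3.03-fold in BEC (1.60 ± 0.13, adjusted p = 3.1e-08) and 1.43-fold in LEC (0.52 ± 0.13, adjusted p = 0.0029). The rise was smaller in LEC by -1.08 ± 0.18 (adjusted p = 0.00055).

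The mouse has a near-identical second copy of this pump gene, *Abcb1b*, so probes of either copy may bind RNA of the other. *Abcb1b* differed far less, with -0.29 ± 0.11 over the ages (adjusted p = 0.04), and of the single ages it was called at E14.5 (-0.76 ± 0.19, adjusted p = 0.0063). Its differences at E16.5 and E18.5, -0.06 ± 0.19 and -0.05 ± 0.19, were smaller than their errors. *Abcb1b* lay low, with group means from 4.94 to 5.70, near the dim bound of 4.709. The binding of probes to RNA of the other copy was not tested.

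*Abcg2* encodes the second multidrug pump of barrier endothelium. In BEC it stood at 9.96, 9.85 and 9.93 at E14.5, 10.19, 10.4 and 10.12 at E16.5, then 10.26, 9.99 and 10.3 at E18.5. In LEC the values were 8.31, 8.17 and 8.43, then 8.41, 8.45 and 8.48, then 8.35, 8.93 and 8.61. All 9 BEC arrays lay above all 9 LEC arrays. The difference was -1.65 ± 0.08 (adjusted p = 8.9e-13, 3.14-fold), with -1.61 ± 0.13, -1.79 ± 0.13 and -1.55 ± 0.13 at the successive ages. Unlike *Abcb1a* and *Slco2a1*, it did not pass the test for a change from E14.5 to E18.5, at 0.27 ± 0.13 in BEC (adjusted p = 0.14) and 0.33 ± 0.13 in LEC (adjusted p = 0.054). The LEC value passed under 4 other settings, with adjusted p from 0.021 to 0.047, and without 1 of 3 single arrays: LEC E18.5 replicate 1 (0.46, adjusted p = 0.0073), LEC E14.5 replicate 3 (0.39, adjusted p = 0.048) or BEC E18.5 replicate 2 (0.33, adjusted p = 0.045).

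Of the 22 other measured genes for ABC pumps, 5 were higher and 9 lower in LEC, against 18.2% and 19% of all genes. The median was -0.09. *Abcc9*, a subunit of potassium channels known in mural cells, was lower by -1.79 ± 0.11 (adjusted p = 1.2e-10), and *Abcg1*, a cholesterol exporter, by -1.63 ± 0.06 (adjusted p = 9.1e-14). *Abca9* was higher by 1.63 ± 0.19 (adjusted p = 6.2e-07). From E14.5 to E18.5, 6 of the 22 rose and 1 fell in BEC, where 13.3% of all genes rose and 17.3% fell, and 7 rose and 5 fell in LEC, against 19.7% and 21.2%.

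*Slco2a1* encodes the carrier that takes up prostaglandins for breakdown. Its BEC levels were 7.48, 7.69 and 7.68 at E14.5, 8.56, 8.6 and 8.65 at E16.5, then 9.83, 10.04 and 9.95 at E18.5. Its LEC levels were 5.01, 5.37 and 5.18, then 5.77, 5.8 and 6.14, then 6.52, 6.78 and 6.43. No 2 of the 6 groups overlapped, and even the highest LEC array lay below the lowest BEC array. LEC were lower by -2.83 ± 0.07 over the ages (adjusted p = 3.3e-16, 7.13-fold), and by -2.43 ± 0.13, -2.70 ± 0.13 and -3.37 ± 0.13 at the successive ages. The rise from E14.5 to E18.5 was 5.01-fold in BEC (2.33 ± 0.13, adjusted p = 3.9e-10) and 2.62-fold in LEC (1.39 ± 0.13, adjusted p = 7.1e-08). It passed the test in both steps, E14.5 to E16.5 and E16.5 to E18.5, in both cell types. The change was smaller in LEC by -0.94 ± 0.18 (adjusted p = 0.0018).

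The other prostaglandin genes did not share 1 direction. Of 14 measured, 3 were higher and 3 lower in LEC, against 18.2% and 19% of all genes. In LEC *Ptgs2*, the inducible enzyme of prostaglandin synthesis, was higher by 2.26 ± 0.09 (adjusted p = 9.9e-14), and *Ptges*, a prostaglandin E synthase, was lower by -0.80 ± 0.11 (adjusted p = 6.9e-06). *Abcc4*, an exporter of prostaglandins, was lower in LEC by -1.25 ± 0.08 (adjusted p = 1.8e-10), and it rose by 0.80 ± 0.14 in BEC (adjusted p = 0.00023) and fell by 0.40 ± 0.14 in LEC (adjusted p = 0.029) from E14.5 to E18.5. *Hpgd*, which breaks prostaglandins down after uptake, fell by 1.38 ± 0.13 in LEC (adjusted p = 9.9e-08) and, in BEC, by 0.97 ± 0.13 (adjusted p = 1e-05) over the ages at which *Slco2a1* rose.

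*Abcb1a*, *Abcg2* and *Slco2a1* had like profiles over the 18 arrays, with a Pearson r of 0.973 for *Abcb1a* with *Abcg2*, 0.97 for *Abcb1a* with *Slco2a1* and 0.914 for *Abcg2* with *Slco2a1*. These values describe arrays that share the 2 cell types, so each r includes the step between them. The genes most like *Abcb1a* were *AU021092* and *Akr1c14* (both 0.993), those most like *Abcg2* were *Plekha1* (0.993) and *Pik3cb* (0.99), and those most like *Slco2a1* were *Atp8b1* (0.991) and *B3gnt3* (0.989). Mural cell markers moved the same way as the rise of *Abcb1a* and *Slco2a1* in BEC. Of these markers 12 of 14 rose in BEC from E14.5 to E18.5, against 13.3% of all genes. The log2 of their summed level there went from 9.55 to 9.67 at E14.5 to 11.83 to 12.14 at E18.5, against 9.40 to 9.53 and 10.39 to 10.51 in LEC. Pan-endothelial markers were also lower in LEC, 10 of 13 with a median of -1.05, against 19% of all genes. *Esam* and *Emcn* stand both in this list and in that of the blood endothelial markers. The part of either in these results was not tested.

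The promoters of both genes that rose in BEC, which were lower in LEC, and of *Slc3a2*, described next and higher in LEC, are shown to be read side by side. Each is the 250 bases before a RefSeq start on GRCm38.p6, 5′ to 3′ along the gene, and positions count back from the start. Windows were searched on both strands for GATAA (the core that GATA factors bind), CTTTGA (the core of TCF and LEF, the factors of WNT signalling), TATAAA (the box bound by the general transcription machinery) and TGATGNAA (the amino acid response element of ATF4). Capitals mark matches, and a match on the other strand appears as its reverse complement.
Abcb1a, chr5:8566841-8567090, plus strand: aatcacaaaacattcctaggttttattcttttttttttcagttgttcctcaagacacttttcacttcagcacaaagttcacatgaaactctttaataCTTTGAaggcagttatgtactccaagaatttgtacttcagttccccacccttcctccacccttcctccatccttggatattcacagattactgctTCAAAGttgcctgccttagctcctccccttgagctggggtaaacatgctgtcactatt
Slco2a1, chr9:103008237-103008486, plus strand: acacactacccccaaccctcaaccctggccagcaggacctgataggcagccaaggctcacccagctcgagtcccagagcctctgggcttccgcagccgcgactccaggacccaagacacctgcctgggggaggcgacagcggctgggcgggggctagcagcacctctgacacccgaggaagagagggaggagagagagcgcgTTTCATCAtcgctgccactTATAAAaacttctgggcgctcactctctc
Slc3a2, chr19:8713898-8714147, minus strand: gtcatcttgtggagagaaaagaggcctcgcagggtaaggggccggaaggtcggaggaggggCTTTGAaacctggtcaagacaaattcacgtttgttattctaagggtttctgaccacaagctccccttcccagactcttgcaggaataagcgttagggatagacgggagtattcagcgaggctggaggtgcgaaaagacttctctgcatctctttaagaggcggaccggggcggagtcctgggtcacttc

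The *Abcb1a* window held CTTTGA at -153 to -148 and, on the other strand, at -58 to -53. That of *Slco2a1* held TATAAA at -29 to -24 and TGATGNAA on the other strand at -48 to -41, and that of *Slc3a2* held CTTTGA at -189 to -184. None of these 3 windows held GATAA. Starts were listed for 9 of the 10 members, in 13 windows, all but *Slc7a5*. CTTTGA was in 4 of the 13 (against 13.8% of all 32841 windows), GATAA in 2 (22.6%), TATAAA in 2 (12.4%) and TGATGNAA in 1 (3.45%). A match shows letters only, and no binding was measured here.

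*Slc7a5* and *Slc3a2* encode the light and heavy chain of LAT1, the exchanger that brings leucine and other large neutral amino acids across barrier endothelium. *Slc7a5* is the transporting chain. Its LEC levels were 10.73, 11.24 and 10.69 at E14.5, 11.84, 11.59 and 11.87 at E16.5, then 11.32, 10.49 and 10.89 at E18.5. Its BEC levels were 9.45, 9.42 and 9.22, then 9.41, 9.39 and 9.36, then 8.49, 7.68 and 7.64. Every LEC array lay above every BEC array. LEC were higher by 2.29 ± 0.12 (adjusted p = 1e-11), a 4.9-fold difference that was 1.53 ± 0.21 at E14.5, then 2.38 ± 0.21 at E16.5, then 2.97 ± 0.21 at E18.5.

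The path of *Slc7a5* with age differed between the cell types. In LEC it rose by 0.88 ± 0.21 to E16.5 (adjusted p = 0.0089) and then fell by 0.87 ± 0.21 (adjusted p = 0.0043), so that E18.5 and E14.5 differed by 0.01 ± 0.21 (adjusted p = 0.97). The LEC rise missed the threshold without LEC E14.5 replicate 3 (0.78, adjusted p = 0.052). In BEC the level was flat to E16.5 (0.03 ± 0.21, adjusted p = 0.95) and then fell by 1.45 ± 0.21 (adjusted p = 7.8e-05), which left it 2.69-fold lower at E18.5 than at E14.5 (-1.43 ± 0.21, adjusted p = 4.1e-05). The change from E14.5 to E18.5 was higher in LEC than in BEC by 1.44 ± 0.30 (adjusted p = 0.0042). Over these ages 17.3% of all genes fell and 13.3% rose in BEC. There 10 of 12 lymphatic and 6 of 10 mast cell markers also fell, with medians of -1.42 and -0.85. Of the macrophage markers 5 of 16 fell and 2 rose in BEC, with a median of 0.08. The part of these markers in the fall of *Slc7a5* was not tested.

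*Slc3a2*, the chain that brings its partners to the surface, moved less. It stood at 10.61, 10.84 and 10.59 in LEC at E14.5, 11.69, 11.4 and 11.74 at E16.5, then 11.39, 11.15 and 11.16 at E18.5. BEC values were 10.48, 10.24 and 10.35, then 10.59, 10.67 and 10.45, then 10.45, 10.46 and 10.48. LEC lay above BEC at each age without overlap, narrowly at E14.5. The difference was 0.71 ± 0.07 over the ages (adjusted p = 3.4e-08), with 0.33 ± 0.11 at E14.5 (adjusted p = 0.059), 1.04 ± 0.11 at E16.5 (adjusted p = 6.7e-07) and 0.76 ± 0.11 at E18.5 (adjusted p = 3.1e-05). The E14.5 value passed under 5 other settings, with adjusted p from 0.0083 to 0.048, and without LEC E16.5 replicate 2 (0.33, adjusted p = 0.041) or LEC E18.5 replicate 1 (0.33, adjusted p = 0.046).

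In LEC *Slc3a2* rose by 0.93 ± 0.11 to E16.5 (adjusted p = 2.4e-05) and fell by 0.38 ± 0.11 to E18.5 (adjusted p = 0.015), the same order of rise and fall as for *Slc7a5*. The fall was lost without 1 of 4 single arrays, LEC E16.5 replicate 1 or 3 or LEC E18.5 replicate 2 or 3, with adjusted p from 0.051 to 0.073, and in the fit on the compared groups alone (adjusted p = 0.079). From E14.5 to E18.5 the net change was 0.55 ± 0.11 (adjusted p = 0.00071) in LEC against 0.11 ± 0.11 (adjusted p = 0.52) in BEC, and the difference between these, 0.44 ± 0.16, did not pass (adjusted p = 0.11). With trend and robust moderation it passed (adjusted p = 0.032). Over the 18 arrays the Pearson r of the chains with each other was 0.807. *Slc7a5* was most like *Otulinl* (0.99) and *Cyp11a1* (0.989), and *Slc3a2* most like *Capg* (0.967) and *Kifbp* (0.955).

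The heavy chain also serves *Slc7a8*, the light chain of a related exchanger. In LEC *Slc7a8* was higher by 2.86 ± 0.15 (adjusted p = 8.8e-12), and rose from E14.5 to E18.5 by 2.96 ± 0.26 in LEC (adjusted p = 5.8e-08) and, in BEC, by 0.81 ± 0.26 (adjusted p = 0.025). Its LEC group means were 6.12, 8.94 and 9.09 at the successive ages, against 4.48, 5.80 and 5.28 in BEC. Among the 30 other amino acid transporter genes, 9 were higher and 11 lower in LEC, against 18.2% and 19% of all genes. The median was -0.04. *Slc6a9*, a glycine carrier, was higher by 2.42 ± 0.13 (adjusted p = 5.9e-12) and *Slc38a4* by 2.21 ± 0.09 (adjusted p = 2.8e-13).

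Both LAT1 chains are known targets of ATF4, the factor induced when amino acids are short. Of 25 other measured genes of the ATF4 response, 11 were higher and 8 lower in LEC, with a median of 0.04. Of all genes 18.2% were called higher and 19% lower. From E14.5 to E18.5, 14 fell and 3 rose in LEC, where 21.2% of all genes fell and 19.7% rose. In BEC 12 fell and 3 rose, against 17.3% and 13.3% of all genes. The medians were -0.56 in LEC and -0.23 in BEC. *Phgdh*, which opens serine synthesis, differed by 1.05 ± 0.10 (adjusted p = 6.5e-08), higher in LEC, and fell by 2.74 ± 0.18 there (adjusted p = 1.2e-09). In LEC *Trib3* was higher by 0.97 ± 0.09 (adjusted p = 1.5e-08), and its changes with age were -0.03 ± 0.15 (adjusted p = 0.91) in LEC against -0.11 ± 0.15 (adjusted p = 0.64) in BEC. Group means of *Atf3* went up from E14.5 to E18.5, from 8.92 to 10.71 in LEC and from 9.25 to 11.05 in BEC.

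The 5 carriers called higher in LEC have that direction by definition, and the markers of macrophages and mast cells had it too. The log2 of the summed macrophage markers was 11.53 to 11.76 in LEC at E14.5, 12.19 to 12.95 at E16.5 and 12.96 to 13.52 at E18.5, against 9.43 to 9.95 on all BEC arrays. For mast cells it was 13.55 to 14.07, 14.61 to 14.67 and 14.22 to 14.58 in LEC, against 10.27 to 12.68 in BEC. None of the 16 macrophage and none of the 10 mast cell markers was at or below the dim bound on all arrays. Keratinocyte markers were higher in LEC in 11 of 14, against 18.2% of all genes, with a median of 0.82. Mural cell markers were mostly lower in LEC, as given above. Of 14 erythroid markers 7 were lower in LEC and none was higher, against 19% and 18.2% of all genes, with a median of -0.18. The part of these markers in the 5 differences was not tested.

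*Slc7a1* encodes the carrier for arginine and lysine. Its LEC levels were 8.35, 8.28 and 8.32 at E14.5, 8.03, 7.98 and 8.12 at E16.5, then 7.9, 8.07 and 7.89 at E18.5. Its BEC levels were 8.49, 8.37 and 8.56, then 8.19, 8.05 and 8.21, then 7.65, 7.82 and 7.91. LEC and BEC overlapped at E16.5 and E18.5, and their difference over the ages, -0.04 ± 0.06, was not called (adjusted p = 0.67). Age moved it more: from E14.5 to E18.5 it fell by 0.68 ± 0.10 in BEC (adjusted p = 2.6e-05) and 0.36 ± 0.10 in LEC (adjusted p = 0.0054). The test of the difference between these falls did not pass (0.32 ± 0.14, adjusted p = 0.19). Over the arrays it was most like *Crmp1* and *Hbb-y*, both at r = 0.94.

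*Slc38a5* encodes a carrier of glutamine, asparagine and serine that is known in the vessels of the retina and brain. It lay low, at 4.95, 5.11 and 4.92 in LEC at E14.5, 4.84, 4.93 and 4.69 at E16.5, then 5.03, 5.12 and 5.09 at E18.5. BEC gave 5.31, 5.14 and 5.36, then 4.93, 4.78 and 6.31, then 5.11, 4.88 and 5.17. Of the 18 arrays, 17 lay above the dim bound, and apart from the 6.31 of BEC E16.5 replicate 3 the values spanned 4.69 to 5.36. No comparison of it was called with all arrays. LEC minus BEC was -0.26 ± 0.15 over the ages (adjusted p = 0.19) and -0.52 ± 0.25 at E16.5 (adjusted p = 0.16). Without BEC E16.5 replicate 3 these became -0.09 ± 0.07 (adjusted p = 0.31) and -0.03 ± 0.12 (adjusted p = 0.91), and without replicate 2 of the same group -0.35 (adjusted p = 0.047) and -0.80 (adjusted p = 0.025). From E14.5 to E16.5 in BEC the change of 0.07 ± 0.25 (adjusted p = 0.89) became -0.42 ± 0.12 (adjusted p = 0.044) without replicate 3.

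*Slc38a3*, a related glutamine carrier, gave clearer differences. It was lower in LEC by -1.79 ± 0.09 (adjusted p = 4.3e-12) and fell from E14.5 to E18.5 by 1.68 ± 0.16 in LEC (adjusted p = 1e-07) and, in BEC, by 1.38 ± 0.16 (adjusted p = 2e-06). Its group means went from 8.68 to 7.31 in BEC and from 7.30 to 5.61 in LEC.

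*Slc16a1* encodes MCT1, the proton-linked carrier of lactate, pyruvate and ketone bodies. LEC gave 8.59, 8.35 and 8.42 at E14.5, 8.06, 8.07 and 8.11 at E16.5, then 7.61, 7.84 and 7.71 at E18.5. BEC gave 7.95, 7.58 and 7.92, then 7.87, 7.86 and 7.69, then 7.6, 7.61 and 7.34. LEC lay above BEC at each age, but at E18.5 the lowest LEC and the highest BEC array read the same to 2 decimals. LEC were higher by 0.37 ± 0.07 over the ages (adjusted p = 0.00015), with 0.64 ± 0.12 at E14.5 (adjusted p = 0.00038), 0.27 ± 0.12 at E16.5 (adjusted p = 0.1) and 0.20 ± 0.12 at E18.5 (adjusted p = 0.2). From E14.5 to E18.5 it fell by 0.74 ± 0.12 in LEC (adjusted p = 4.2e-05). In BEC the change was -0.30 ± 0.12 (adjusted p = 0.057), which passed with arrays at a common median (-0.35, adjusted p = 0.035), under 3 further settings and without BEC E14.5 replicate 2 (-0.42, adjusted p = 0.014). The difference between the changes, -0.44 ± 0.16, did not pass (adjusted p = 0.12).

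MCT1 needs a partner chain to reach the surface. That partner, basigin (*Bsg*), differed by 0.00 ± 0.06 between LEC and BEC, and its group means lay between 8.88 and 9.06. *Emb*, which encodes embigin, a partner of a related carrier, was higher in LEC by 3.05 ± 0.15 (adjusted p = 2.4e-12). Of 26 other carriers of monocarboxylates and hexoses, 8 were higher and 4 lower in LEC, against 18.2% and 19% of all genes. *Slc2a1*, the glucose carrier GLUT1 of barrier endothelium, was lower in LEC by -1.92 ± 0.08 (adjusted p = 5.5e-13), while *Slc16a7* was higher by 1.40 ± 0.14 (adjusted p = 1.4e-07) and *Slc2a3* by 1.33 ± 0.07 (adjusted p = 1.2e-11).

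*Tfrc* is the transferrin receptor, whose message is known to be stabilised when iron is low. LEC gave 8.61, 8.45 and 8.43 at E14.5, 7.81, 7.85 and 7.76 at E16.5, then 7.94, 8.24 and 7.61 at E18.5. BEC gave 8.14, 7.76 and 8.09, then 7.53, 7.75 and 7.59, then 7.27, 7.34 and 7.15. LEC lay above BEC at each age without overlap, and the difference was 0.45 ± 0.08 over the ages (adjusted p = 0.00011). It was 0.50 ± 0.14 at E14.5 (adjusted p = 0.014), 0.18 ± 0.14 at E16.5 (adjusted p = 0.41) and 0.68 ± 0.14 at E18.5 (adjusted p = 0.00073). The E14.5 call was lost without BEC E14.5 replicate 2 (0.38, adjusted p = 0.11) or LEC E14.5 replicate 1 (0.44, adjusted p = 0.075). From E14.5 to E18.5 *Tfrc* fell by 0.57 ± 0.14 in LEC (adjusted p = 0.0025) and, in BEC, by 0.75 ± 0.14 (adjusted p = 0.00031).

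Red cell precursors carry much transferrin receptor. Of 14 erythroid markers 4 fell in LEC and 3 in BEC over the same ages and none rose, with medians of -0.10 and -0.07, against 21.2% and 17.3% of all genes that fell. The log2 of their summed level went from 9.91 to 10.17 at E14.5 to 8.51 to 8.68 at E18.5 in LEC, and from 10.61 to 11.11 to 9.06 to 9.29 in BEC. Bright genes weigh most in this sum of unlogged levels, at E14.5 above all *Hbb-y*. Its group means were 9.17 in LEC and 10.05 in BEC at E14.5, then 3.95 and 3.81 at E18.5. The embryonic globin *Hbb-y* fell by 5.22 ± 0.27 in LEC (adjusted p = 1.1e-10) and, in BEC, by 6.24 ± 0.27 (adjusted p = 3.9e-11). *Alas2*, which opens haem synthesis in red cell precursors, fell by 0.93 ± 0.20 in LEC (adjusted p = 0.00078), and its BEC means were 7.27 at E14.5 and 7.24 at E18.5 (adjusted p = 0.93). *Rhag*, *Epb42* and *Hbb-bh1* were at or below the dim bound on all arrays. Dividing cells also take up iron, and 16 of 17 cell cycle genes fell in LEC and 12 in BEC. The part of either in the fall of *Tfrc*, *Slc16a1* or *Slc7a1* was not tested.

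Of the 24 other iron genes, 10 were higher and 7 lower in LEC, against 18.2% and 19% of all genes. The median was 0.13. In LEC *Cp*, the ferroxidase ceruloplasmin, was higher by 3.68 ± 0.11 (adjusted p = 1.6e-15) and rose by 4.88 ± 0.19 from E14.5 to E18.5 (adjusted p = 2.1e-12). In LEC *Slc40a1*, the iron exporter ferroportin, was higher by 1.77 ± 0.16 (adjusted p = 2.3e-08), and it rose by 2.13 ± 0.28 in LEC (adjusted p = 5.3e-06) and fell by 0.79 ± 0.28 in BEC (adjusted p = 0.037). *Hmox1*, which frees iron from haem, was higher by 1.31 ± 0.08 (adjusted p = 4.5e-11). These 3 genes are also known in macrophages. Over the arrays *Tfrc* and *Slc16a1* had r = 0.826 with each other. *Tfrc* was most like *Fdft1* (0.945) and *Mpp6* (0.916), and *Slc16a1* most like *Zmat4* (0.929) and *Phgdh* (0.928).

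*Mfsd2a* takes up lysophospholipids that carry docosahexaenoic acid and is known to hold transcytosis low in brain endothelium. LEC gave 5.43, 5.83 and 5.65 at E14.5, 5.8, 5.85 and 5.83 at E16.5, then 5.5, 5.66 and 5.16 at E18.5. BEC gave 4.8, 4.84 and 4.71, then 4.69, 4.52 and 6.19, then 4.42, 4.27 and 4.93. Apart from BEC E16.5 replicate 3, every BEC array lay below every LEC array, and 14 of the 18 arrays lay above the dim bound. LEC were higher by 0.81 ± 0.17 over the ages (adjusted p = 0.00061), a 1.76-fold difference, with 0.85 ± 0.29 at E14.5 (adjusted p = 0.054), 0.69 ± 0.29 at E16.5 (adjusted p = 0.095) and 0.90 ± 0.29 at E18.5 (adjusted p = 0.024). Without BEC E16.5 replicate 3 the values were 0.99 ± 0.09 (adjusted p = 8.9e-08), 0.85 ± 0.16 (adjusted p = 0.00059), 1.22 ± 0.18 (adjusted p = 3.2e-05) and 0.90 ± 0.16 (adjusted p = 0.00021), so that all 3 ages passed. The E14.5 value also passed under 5 other settings (adjusted p from 0.00025 to 0.043) and without BEC E16.5 replicate 1 (adjusted p = 0.046) or 2 (adjusted p = 0.029).

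The *Mfsd2a* call at E18.5 was lost without replicate 1 or 2 of either cell type at that age, with adjusted p from 0.06 to 0.098, with array weights (0.85, adjusted p = 0.19) and with no moderation (adjusted p = 0.07). No change of *Mfsd2a* with age passed the test with all arrays, and 1 did without BEC E16.5 replicate 2, from E16.5 to E18.5 in BEC (-0.90, adjusted p = 0.034). Without replicate 3 the BEC changes were -0.18 ± 0.18 (adjusted p = 0.57) to E16.5 and -0.07 ± 0.18 (adjusted p = 0.79) from there to E18.5. Over the 18 arrays *Mfsd2a* was most like *Rpgrip1l* (0.84) and *Wdfy4* (0.818), and over the 17 arrays without replicate 3 most like *Arhgap4* (0.963) and *Wdfy4* (0.957), with 0.895 for *Rpgrip1l*. Among 19 other carriers and receptors of lipids, 6 were higher and 8 lower in LEC, against 18.2% and 19% of all genes. Those of the list for fatty acids in blood capillaries were lower, *Cd36* by -3.12 ± 0.09 (adjusted p = 1.4e-15) and *Fabp4* by -2.82 ± 0.09 (adjusted p = 4.3e-15), and *Vldlr* was higher by 2.13 ± 0.08 (adjusted p = 1.1e-13).

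BEC E16.5 replicate 3 read higher for a few barrier genes than the other arrays of its group. Over all 19938 genes, ranked by how far this array exceeded the higher of the other 2, *Mfsd2a* came 1st with an excess of 1.49 and *Slc38a5* 2nd with 1.39. *Slc22a8*, an organic anion carrier of brain endothelium, came 3rd, with 4.18, 4.09 and 5.51. *Klk1b11*, at 3.20, 3.17 and 4.27, and *Spock2*, at 5.94, 5.99 and 7.02, were the other genes at least 1 above both arrays, which made 5 in all. These non-members were singled out after their values were seen. On the other 17 arrays this number was 0 to 42. *Klk1b11* lay below the dim bound of 4.709 on every BEC array of E16.5, and *Slc22a8* and *Mfsd2a* on replicates 1 and 2.

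The other 8 carriers were at most 0.10 above their neighbours on this array. *Abcb1a* exceeded its higher neighbour by 0.10, *Slco2a1* by 0.04 and *Slc7a1* by 0.02, and *Abcg2*, *Slc3a2*, *Slc16a1*, *Tfrc* and *Slc7a5* were not highest on this array. Of 25 blood-brain barrier genes other than the members, 15 (60%) were highest on this array, against 31% of all genes. This array was singled out for its values, and the 15 include *Slc22a8* and *Spock2*. The share was not computed for any other array, so it has no like comparison. After *Slc22a8* and *Spock2*, the excess was 0.39 for *Cgn*, 0.34 for *Lrp8* and 0.27 for *Pltp*, and went down to 0.02 for *Igf1r*. Others of the list were not highest there, among them *Slc2a1* at 10.72, 10.84 and 10.69, and *Cldn5*, the main claudin of endothelium, at 11.18, 11.07 and 11.07. *Slc22a8* was also the gene most like *Slc38a5* over the 18 arrays (r = 0.819), which was 0.487 over the 17 arrays without this one. Over those 17 arrays *Slc38a5* was most like *Gfap* (0.789), which is in the list of neuron and astroglia markers, and *Gm4884* (0.767).

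**Figure D3:**
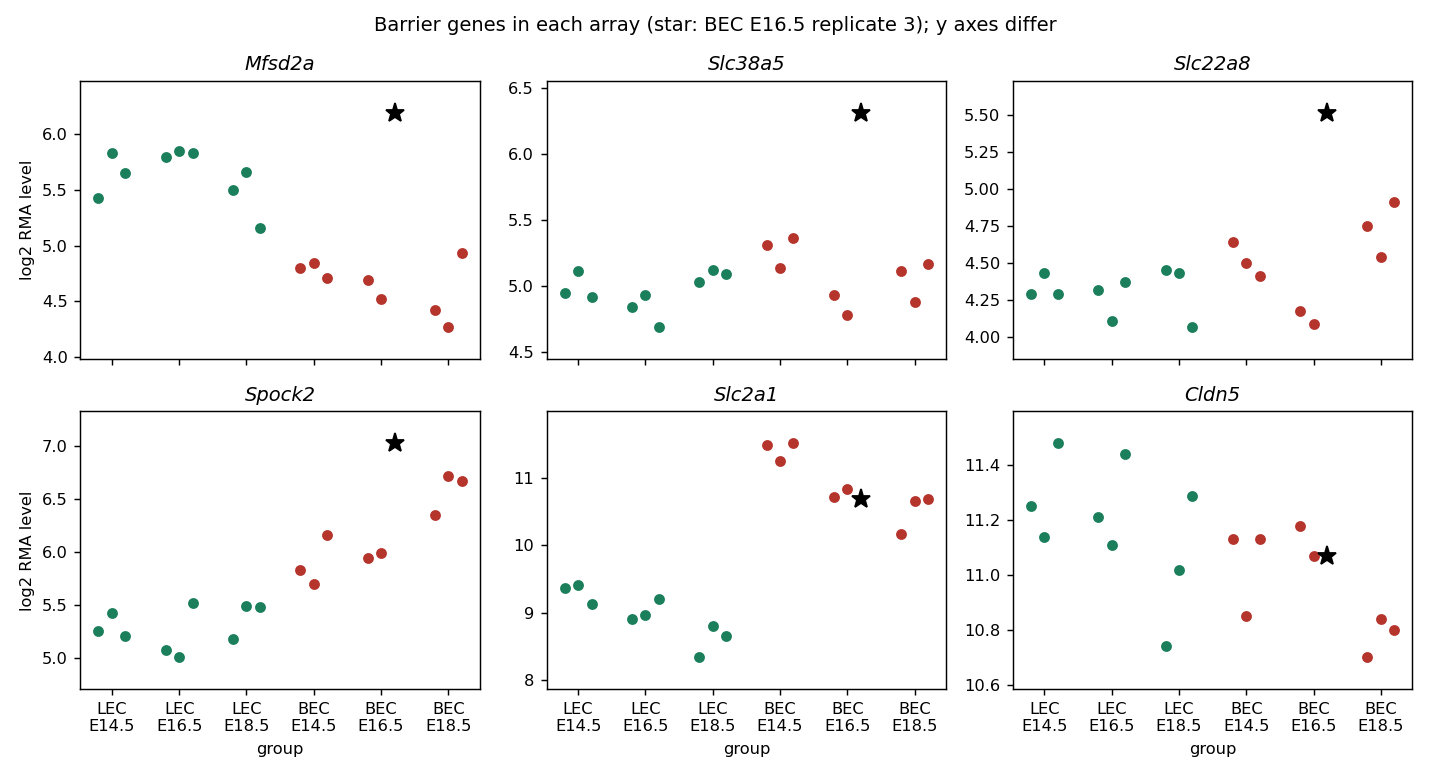
Log2 level (y axis, its own range in each panel) of 6 barrier genes on each array, by group (x axis), with LEC in green, BEC in red and BEC E16.5 replicate 3 as a black star. The star lies above its group by at least 1 for *Mfsd2a*, *Slc38a5*, *Slc22a8* and *Spock2* and within or near it for *Slc2a1* and *Cldn5*.

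Between E14.5 and E18.5, 6 of the 10 carriers changed in LEC, where 40.9% of all genes were called, and 5 in BEC, where 30.6% were called. In LEC 3 rose, *Slco2a1*, *Abcb1a* and *Slc3a2*, and 3 fell, *Slc16a1*, *Tfrc* and *Slc7a1*, against 19.7% and 21.2% of all genes. In BEC 2 rose, *Slco2a1* and *Abcb1a*, and 3 fell, *Slc7a5*, *Tfrc* and *Slc7a1*, against 13.3% and 17.3%. The share of rises among all called genes was 48.2% in LEC and 43.4% in BEC, and 37.6% and 36.1% with arrays shifted to a common median. No called change of a carrier turned direction under that scaling. The test of the difference between LEC and BEC in this change called 3 carriers, *Abcb1a*, *Slco2a1* and *Slc7a5*, against 8.85% of all genes.

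**Figure D4:**
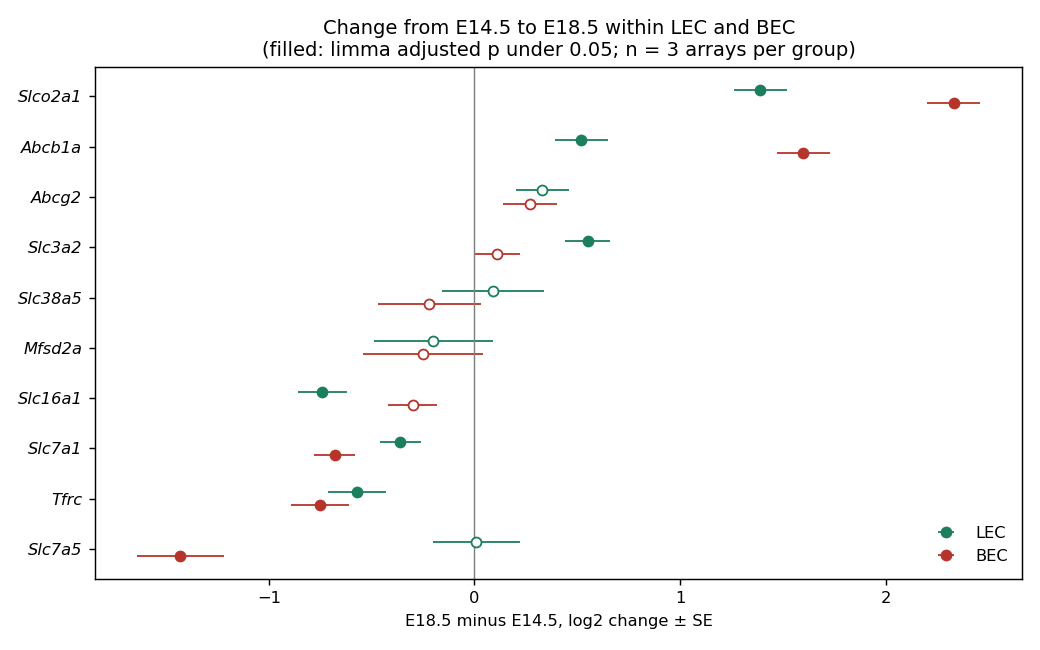
Change from E14.5 to E18.5 in log2 units (x axis) for each carrier (y axis), in LEC (green) and BEC (red), with bars of 1 SE; filled symbols passed the limma threshold. *Slco2a1* and *Abcb1a* rise more in BEC, at 2.33 and 1.60, than in LEC, at 1.39 and 0.52, and *Slc7a5* falls by 1.43 in BEC while its LEC change is 0.01.

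Each step between ages was also tested by itself. From E14.5 to E16.5, 5 carriers were called in LEC (13.8% of all genes) and 3 in BEC (9.76%). From E16.5 to E18.5, 4 were called in LEC (34.4%) and 5 in BEC (32.3%). In the early step *Slco2a1*, *Slc7a5* and *Slc3a2* rose in LEC while *Tfrc* fell by 0.69 ± 0.14 (adjusted p = 0.002) and *Slc16a1* by 0.38 ± 0.12 (adjusted p = 0.035). In the late step *Slc7a5*, *Slc3a2* and *Slc16a1* fell in LEC, the last by 0.36 ± 0.12 (adjusted p = 0.023). In BEC *Abcb1a* rose by 0.95 ± 0.13 (adjusted p = 0.00013) and then 0.65 ± 0.13 (adjusted p = 0.0011), and *Slco2a1* by 0.99 ± 0.13 (adjusted p = 8.7e-05) and then 1.34 ± 0.13 (adjusted p = 1e-06).

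Several of these step calls were lost without single arrays or under other settings. That of *Slc16a1* in LEC was lost in the early step without LEC E14.5 replicate 1 or 3 or any LEC E16.5 array (adjusted p from 0.067 to 0.15) and with arrays at a common median (-0.35, adjusted p = 0.067). In the late step it was lost without LEC E16.5 replicate 3 or LEC E18.5 replicate 1 or 3 (adjusted p from 0.052 to 0.075), with quantile normalization (-0.28, adjusted p = 0.071), with array weights (adjusted p = 0.065) and in the fit on the compared groups alone (adjusted p = 0.061). *Slc7a1* in BEC fell by 0.32 ± 0.10 in the early step (adjusted p = 0.042), a call lost without 1 of 10 arrays, namely any BEC array of E14.5 or E16.5, any LEC array of E14.5 or LEC E16.5 replicate 1 (adjusted p from 0.054 to 0.18). It was also lost with arrays at a common median (-0.28, adjusted p = 0.095) and with the compared groups alone (adjusted p = 0.056). Its late fall of 0.36 ± 0.10 (adjusted p = 0.01) was lost without BEC E18.5 replicate 1 (-0.29, adjusted p = 0.054), with quantile normalization (-0.20, adjusted p = 0.13) and with the compared groups alone (adjusted p = 0.055). The late fall of *Tfrc* in BEC by 0.37 ± 0.14 (adjusted p = 0.045) was lost without 1 of 13 arrays: any BEC array of E16.5 or E18.5, BEC E14.5 replicate 3 or any LEC array of E14.5 or E16.5 (adjusted p from 0.051 to 0.16). It was also lost with quantile normalization (-0.22, adjusted p = 0.26), no moderation (adjusted p = 0.063) and array weights (adjusted p = 0.061).

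In the wider barrier program the LEC to BEC differences leaned towards BEC. Of 25 blood-brain barrier genes other than the members, 14 were lower and 4 higher in LEC, with a median of -0.37, while 19% and 18.2% of all genes were called lower and higher. *Palmd* was lower by -4.10 ± 0.14 (adjusted p = 1.4e-14) and *Vwa1* by -2.14 ± 0.12 (adjusted p = 1.2e-11). Among those higher in LEC was *Slc40a1*, described above with the iron genes. Of 20 genes of WNT signalling in barrier vessels, 11 were lower and 3 higher, with a median of -0.27. Among the lower were the target *Apcdd1* (-1.80 ± 0.09, adjusted p = 2.1e-12), the receptor *Fzd4* (-1.29 ± 0.07, adjusted p = 4.5e-12) and *Sox17* (-2.45 ± 0.09, adjusted p = 7.7e-14). *Sox17* is also among the blood endothelial markers. Group means of *Fzd6* were higher in LEC, at 9.04, 9.78 and 10.63 at the successive ages, against 8.84, 9.07 and 9.45 in BEC. *Apcdd1* also rose from E14.5 to E18.5, by 1.57 ± 0.15 in BEC (adjusted p = 2.6e-07) and 1.00 ± 0.15 in LEC (adjusted p = 2.6e-05).

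Genes of leakier vessels were mostly lower in LEC as well. Of 11 genes of fenestrae and transcytosis, 8 were lower and 3 higher, against 19% and 18.2% of all genes. Their median was -0.62. *Plvap*, the diaphragm protein that barrier vessels lose, was lower by -2.75 ± 0.10 (adjusted p = 1.6e-14). *Plvap* and *Nrp1* of this list are also among the blood endothelial markers. Organic ion carriers differed in 4 of 24, 2 in each direction, against 37.1% of all genes. *Slc28a2*, a nucleoside carrier, was lower by -1.11 ± 0.08 (adjusted p = 1.6e-09) and *Slco3a1* higher by 1.19 ± 0.07 (adjusted p = 3.2e-11).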

How the data were processed

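The arrays carry probes along the exons of each gene. The authors deposited log2 levels. Per the submitters' processing notes, these came from oligo 1.54.1 with RMA, which corrects background, quantile-normalizes and combines the probes of a cluster. Joint normalization of the 18 arrays is not given in the sources used here, and array medians ran from 5.434 to 5.582. Arrays have no read depth, and their number limits the precision.

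Of 35556 transcript clusters, 21789 had 1 gene symbol in the platform annotation, 1621 had several and 12146 were not listed. The brightest cluster of each gene was used, which left 19938 genes without a filter on dim genes. A limma 3.58.1 model of the 6 group means (R 4.3.3, eBayes without trend, 12 residual and 6.11 prior degrees of freedom) used every array without pairing, and 11 contrasts were tested two-sided. The script was tested on simulated data. Per the labels, arrays of a group are biological replicates.

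The members and gene lists were chosen with earlier results of these data known. Of each list of related genes, the largest called differences between LEC and BEC and the largest changes with age could be named, of each marker list the 2 brightest genes, and for each member the 2 genes of highest correlation with it whose range over the arrays was at least 1. Markers named for lying at or below the dim bound were chosen by their values. Alternatives were 2 other scalings, a filter on dim genes, other variance estimates, array weights, fits on the compared groups, all clusters of a gene, a replicate block, each array left out and, added after the data were seen, a fit without the E18.5 arrays and the most alike genes of *Mfsd2a* and *Slc38a5* without BEC E16.5 replicate 3. Promoter windows come from RefSeq (GRCm38.p6). Same-numbered LEC and BEC arrays did not deviate together: 3 of 9 pairs correlated over 0.1, with a range of -0.107 to 0.13.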

Additional observations from a re-analysis of the deposited data

Results flagged for a closer look

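The changes of 3 carriers from E14.5 to E18.5 differed between LEC and BEC by limma's test of the difference itself. *Abcb1a* rose less in LEC by -1.08 ± 0.18 (adjusted p = 0.00055), and *Slco2a1* by -0.94 ± 0.18 (adjusted p = 0.0018). *Slc7a5* fell by 1.43 ± 0.21 in BEC, against 0.01 ± 0.21 in LEC, a difference of 1.44 ± 0.30 (adjusted p = 0.0042). Of all genes 8.85% passed this test in either direction, and 17.3% fell in BEC. Over the same ages 10 of 14 mural cell markers rose less or fell more in LEC than in BEC by this test, with a median of -1.26, and 12 of 16 macrophage markers went the other way, with a median of 2.00. Lymphatic markers fell in BEC in 10 of 12, with a median of -1.42, and 9 of 12 passed the test of the difference, all higher in LEC. Mast cell markers fell in BEC in 6 of 10, with a median of -0.85, and 4 of 10 passed the test of the difference, all higher in LEC, with a median of 1.64. The part of these markers was not tested. With 3 arrays in a group, no test for a single outlying array was made.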

How the results depend on the processing

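Over the alternatives that leave out 1 array each, 1919 of 1980 results of single carriers kept their direction and their side of the threshold, 43 fell under it, 17 passed it and 1 reversed. Under the other settings 989 of 1040 were kept, 14 fell under it and 37 passed it. The reversal was *Slc38a5* from E14.5 to E16.5 in BEC, 0.07 ± 0.25 (adjusted p = 0.89) with all arrays and -0.42 (adjusted p = 0.044) without BEC E16.5 replicate 3; over all single arrays left out it ran from -0.42 to 0.35. Of 57 calls, 48 held with every single array left out.

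Counts of carriers called moved by more than 1.5 times as follows, and the cause was not tested. For E16.5 to E18.5 in LEC, 4 became 2 with a fit on the compared groups alone. For E14.5 to E16.5 in BEC, 3 became 5 with array weights and 5 without the E18.5 arrays, a setting added after the data were seen. For E16.5 to E18.5 in BEC, 5 became 3 with quantile normalization of all arrays. With single arrays left out, the early step in LEC gave 3 to 6 (3 without LEC E14.5 replicate 3), the late step in LEC 2 to 4 (2 without LEC E16.5 replicate 3 or LEC E18.5 replicate 3) and the late step in BEC 3 to 6 (3 without BEC E18.5 replicate 1). The early step in BEC gave 2 to 4, and LEC against BEC gave 8 to 9 over the ages.

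With a replicate block that took same-numbered LEC and BEC arrays of an age as 1 litter, the count of carriers was 8 over the ages, and the block changed no call of a carrier in the 11 contrasts. For changes with age within LEC or BEC the block entered only as a consensus correlation of 0.0151. That fit is nearly the one without a block, so the unchanged calls of those contrasts say little. The labels do not say that the numbers mark the litters, and 4 of the 9 LEC arrays correlated best with the BEC array of their own number. Shifting the arrays to a common median moved the share of rises among called genes from 49.1% to 30.5% in the late step in BEC, from 46.3% to 26.6% in LEC, and from 52.2% to 66.4% in the early step in BEC. The largest shift of the median of all genes was -0.12, in the late step in LEC.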
